A study of Xenopus laevis with 6 samples.

Results

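The genes described here build and help to run 3 protein quality control systems: the proteasome, the cytosolic chaperonin, and the heat shock and J-domain chaperones. They were taken by name from the gene symbols of the array's platform annotation: symbols starting with psma to psme, with cct and a digit, or with the hsp and dnaj prefixes of the chaperone families, with hspg2 dropped. The rule found 131 genes, each read by its brightest probe set (the group of short oligonucleotide probes for 1 transcript), out of 32539 probe sets tested. They comprise 57 proteasome genes, 11 chaperonin genes, 58 heat shock and J-domain genes, and 5 that match by name alone. Xenopus laevis is tetraploid, and its gene symbols name the subgenome by a suffix: 69 of these genes are .L (long) and 61 are .S (short) copies.

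The study measured transcript levels with 6 Affymetrix Xenopus laevis Genome 2.0 arrays in animal caps, the ectoderm cut from the top of the blastula. The series title places ERK3, an atypical MAP kinase encoded by mapk6, in the formation of epithelial architecture. Each of the 6 groups was 1 array: caps cultured alone (untreated) or with activin plus retinoic acid (activin/RA), each with a control morpholino at 80 ng, ERK3 MO1/2 (MO1 and MO2, 40 ng of each) or ERK3 MO3 at 80 ng. Morpholinos are antisense oligonucleotides that block translation or splicing. In every group they were injected at the 4-cell stage into the animal side of all blastomeres, caps were cut at stage 9, and RNA was taken at stage 15. The targeted transcript was not analysed here, as no probe set is annotated to mapk6.

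As known from yeast and mammals, the proteasome degrades ubiquitin-tagged proteins in a barrel of alpha rings (psma) and catalytic beta rings (psmb). A regulatory cap with an ATPase ring (psmc) and non-ATPase subunits (psmd) unfolds the substrates, and the activators (psme) can take the place of that cap. The chaperonin (cct genes and tcp1) is a double ring that folds actin and tubulin, and Hsp70 proteins (hspa) fold other chains with J-domain partners (dnaj) and the exchange factor Hsp110 (hsph). Many of these genes are expressed in all cells, and some heat shock genes are induced when proteins misfold.

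Levels are given as log2 of the deposited array signal, and changes as differences of log2 signal with a standard error (SE). A probe set was called changed at an adjusted p under 0.05 in limma, a linear model fitted to all probe sets. With 1 array per group, the 3 morpholino pairs served as repeats for the effect of activin/RA, and the pair of ERK3 reagents as repeats for the knockdown. P-values therefore reflect nothing but the scatter among these 6 arrays, which may be technical. Each culture has a single control array, whose variation was taken to equal that of the rest.

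Most of these genes had signals above the median of all values, and most were called in no comparison. Of the 131 genes, 102 exceeded the median of all values (log2 5.10) on all 6 arrays, and 15 lay below it on all 6, among them all 5 small heat shock genes. The range over the 6 arrays had a median of 0.57 for these genes and 0.63 for all probe sets. It reached at least 1 in 21 genes (16% of the list), compared with 25.2% of all probe sets. The 131 genes, each read by its brightest probe set, had array medians of 7.37 to 7.71. They were thus brighter than the array as a whole, and the ranges were not compared at matched levels. In all, 102 genes were called in no comparison and 29 in at least 1.

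The array medians lay between 5.08 and 5.14. Over the 131 genes alone, the control array of untreated caps differed from the MO1/2 array by a median of 0.29 in size and from the MO3 array by 0.18, and the pair of ERK3 arrays differed by 0.17 there. Mesoderm and endoderm markers were above the median of all values for 4 of 25 symbols on each untreated array and for 23 to 25 on the activin/RA arrays. The log2 of their summed linear signal, which the brightest symbols dominate, was 9.01 to 9.43 on the untreated and 12.46 to 13.01 on the activin/RA arrays. Epidermal markers, which define the tissue that untreated caps form, were above the median of all values for 19 of 22 symbols on the untreated control array, 11 with MO1/2 and 13 with MO3. On the activin/RA arrays 20, 18 and 18 were above it in the same order, so this count did not set untreated caps apart. Muscle and heart markers stayed at a median of 2.20 to 2.34, with 1 or 2 of 18 above the median of all values on any array. In caps, which mix cell types, fewer cells of a type and less RNA per cell cannot be told apart.

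**Figure D1:**
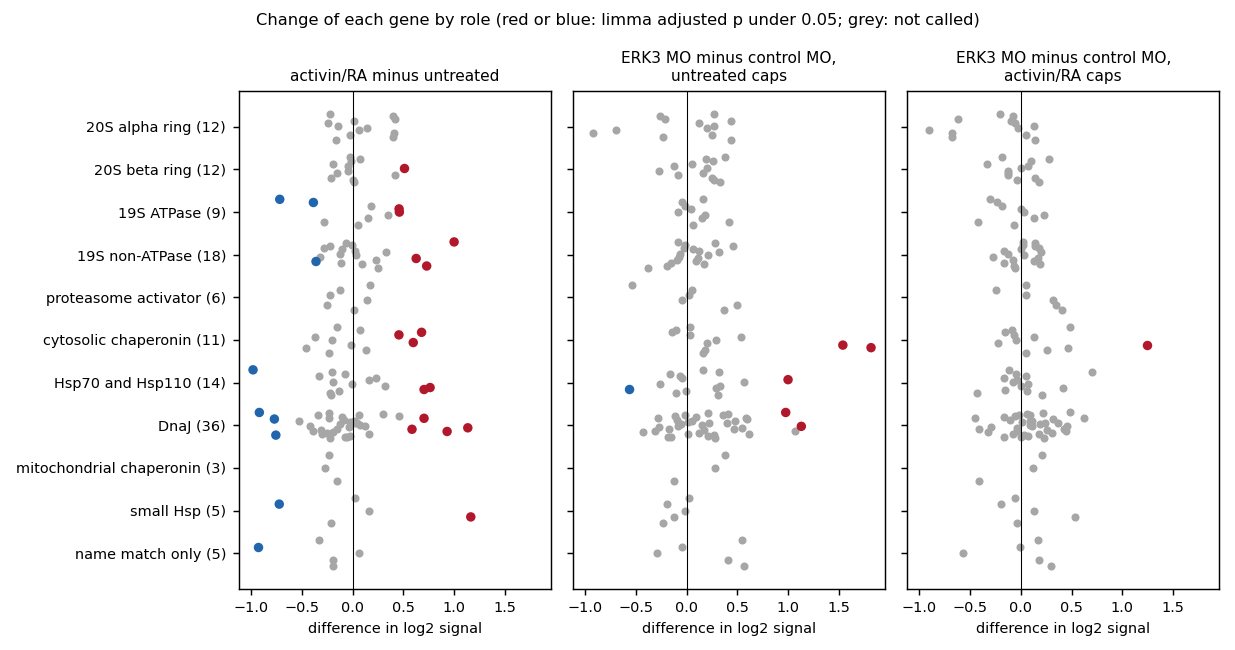
Change of each of the 131 genes in log2 signal (horizontal axis), grouped by role with the number of genes in parentheses, for activin/RA against untreated caps and for the ERK3 morpholinos against the control morpholino in each culture. Coloured points passed limma's adjusted p of 0.05 (red higher, blue lower): 25 for activin/RA, 6 for ERK3 in untreated caps and 1 with activin/RA.

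The first comparison asks how these genes respond to the ERK3 morpholinos in untreated caps, and cct4, the gene of the delta subunit of the chaperonin, led it. The .L copy of cct4 rose 3.52-fold and the .S copy 2.91-fold. Also higher were the endoplasmic reticulum (ER) Hsp70 gene hspa5.S, the ER J-domain gene dnajb9.L and the histone chaperone gene dnajc9.L. The cytosolic Hsp70 gene hspa1l.S fell. In total 5 genes were higher and 1 was lower, or 4.58% of 131, compared with 6.7% of all probe sets called (3.14% higher and 3.56% lower). The share of the list called was thus not above that of the array as a whole. The median change was 0.12 over the 131 genes and 0.01 over all probe sets.

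In untreated caps cct4.L (probe set Xl2.47438.1.S1_at) stood at 6.43 with the control morpholino, 8.02 with MO1/2 and 8.47 with MO3. In activin/RA caps it stood at 6.88, 7.23 and 7.45 in the same order. Both untreated ERK3 arrays lay above all other arrays, and the control array was the lowest in each culture. The change was 1.82 ± 0.23 SE in untreated caps (limma adjusted p = 0.0155) and 0.46 in activin/RA caps (limma adjusted p = 0.530).

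For cct4.S (probe set Xl2.25945.1.S1_at) the untreated levels were 7.67 with the control, 9.25 with MO1/2 and 9.17 with MO3, and the activin/RA levels were 7.85, 9.11 and 9.08. All 4 ERK3 arrays lay above both control arrays, with a gap wider than the spread on either side. The change was 1.54 ± 0.15 SE in untreated caps (limma adjusted p = 0.0138). In activin/RA caps it was 1.25 ± 0.15 SE, or 2.37-fold (limma adjusted p = 0.0421). This made cct4.S the 1 gene of 131 called there (0.76%), where 0.138% of all probe sets were called and 4 of them (0.0123%) were higher. The activin/RA call for cct4.S was lost when either ERK3 array of either culture was left out, with limma adjusted p of 0.0592 without untreated MO1/2, 0.0596 without untreated MO3, 0.164 without activin/RA MO1/2 and 0.196 without activin/RA MO3. It was also lost with no intensity trend in the model (limma adjusted p = 0.0902), and its adjusted p ranged from 0.0110 to 0.261 over all alternatives. The untreated calls of both copies held whichever of the 5 other arrays was left out.

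The other chaperonin genes did not pass in either culture. The nearest was cct6a.S, the zeta subunit gene, at 10.27, 10.73 and 10.89 in untreated caps and 10.18, 10.19 and 10.42 with activin/RA (untreated change 0.54, limma adjusted p = 0.0725). The ERK3 change in untreated caps was 0.29 for cct5b, 0.20 for cct5.S, 0.18 for cct3.S, 0.16 for cct2.S, 0.04 for cct7.L, 0.03 for cct8.S, -0.11 for cct8.L and -0.15 for cct7.S. In activin/RA caps these 8 changes ran from -0.23 (cct5.S) to 0.48 (cct8.S). The remaining subunit, alpha, is encoded by tcp1, which the naming rule does not reach. Its .S copy stood at 7.23, 8.23 and 8.11 in untreated caps and 7.69, 7.60 and 7.17 with activin/RA, and rose by 0.94 ± 0.22 SE in untreated caps (limma adjusted p = 0.0492). Its .L copy changed by 0.20 there and was not called (limma adjusted p = 0.464).

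**Figure D2:**
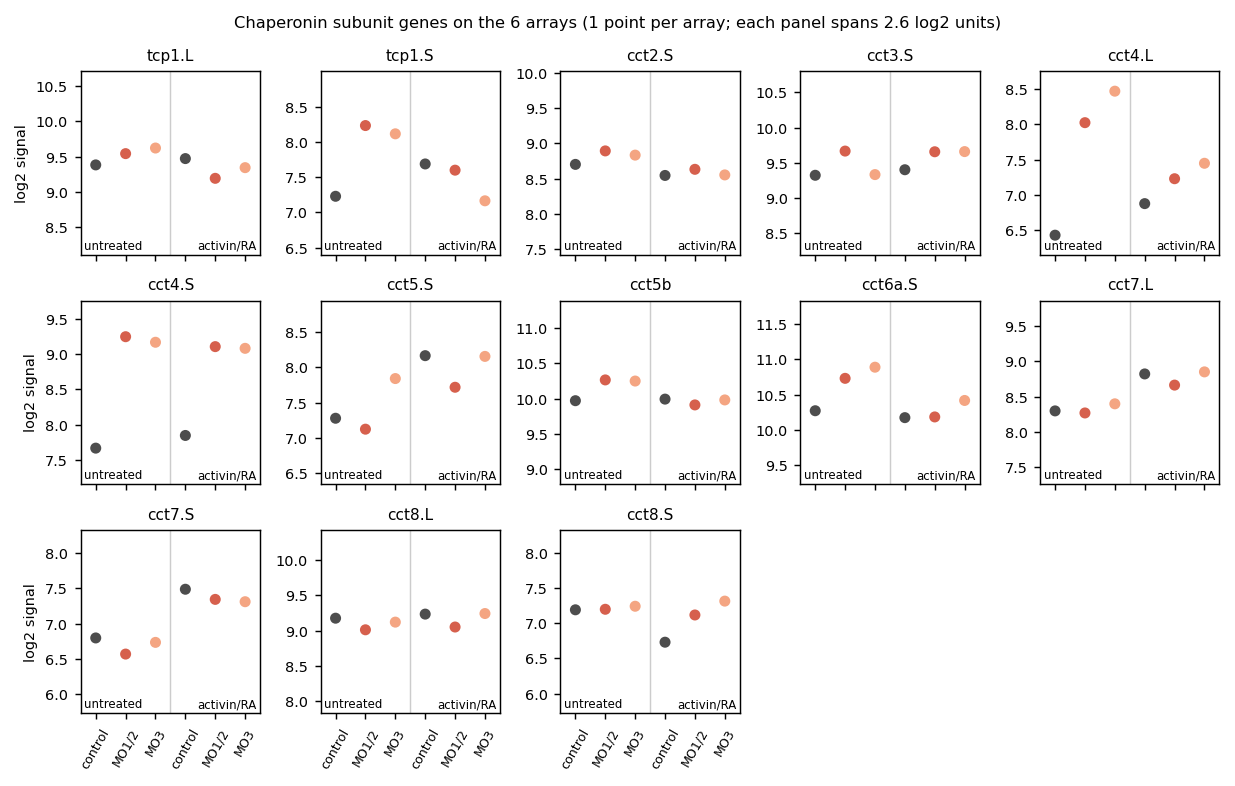
Log2 signal (vertical axis) of each chaperonin gene and of tcp1 on the 6 arrays, 1 point per array, with untreated caps left and activin/RA caps right of the line; every panel spans 2.6 log2 units. For cct4.S the ERK3 arrays (9.08 to 9.25) stand above the control arrays (7.67 and 7.85) in both cultures, while cct4.L is highest on the untreated ERK3 arrays (8.02 and 8.47).

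Among the chaperones of the ER, hspa5.S, which encodes the resident Hsp70 BiP, stood at 6.39 with the control, 7.43 with MO1/2 and 7.35 with MO3 in untreated caps, and at 7.25, 7.39 and 7.04 with activin/RA. The array of untreated control caps was the low one, and the other 5 arrays lay between 7.04 and 7.43. The change was 1.0 ± 0.21 SE in untreated caps (limma adjusted p = 0.0381) and -0.03 in activin/RA caps. Its call was lost without untreated MO1/2 (limma adjusted p = 0.119) or untreated MO3 (0.0564). The copy hspa5.L stood at 6.88, 7.24 and 7.65 in untreated caps and 7.11, 7.05 and 7.02 with activin/RA, and did not pass (0.56, limma adjusted p = 0.173).

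The BiP partner gene dnajb9.L stood at 6.70, 7.74 and 7.91 in untreated caps and 7.27, 7.89 and 7.57 with activin/RA. In each culture its control array was the lowest. The change was 1.13 ± 0.20 SE in untreated caps (limma adjusted p = 0.0271) and 0.46 in activin/RA caps (0.478), and the untreated call was lost without untreated MO1/2 (limma adjusted p = 0.0711). The ER membrane J-domain gene dnajb14.S, at 7.01, 8.24 and 7.91 in untreated caps, missed the threshold (1.07, limma adjusted p = 0.0509). The rise was not shared by all ER genes. The ER J-domain genes dnajb11.L, dnajb11.S and dnajc3.L changed by 0.01, 0.12 and 0.09 in untreated caps. Of 18 symbols outside the naming rule, mostly ER folding genes, limma called 0 there. Of all probe sets 6.7% were called, so 0 of 18 says little. Their changes ran from -0.59 to 0.62, with a median of 0.0011.

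The histone chaperone gene dnajc9.L stood at 6.23, 7.16 and 7.26 in untreated caps and at 5.64, 6.12 and 6.12 with activin/RA. The control array was the lowest of its culture both times. The ERK3 change was 0.98 ± 0.19 SE in untreated caps (limma adjusted p = 0.0323) and 0.49 in activin/RA caps (0.424). The cytosolic gene hspa1l.S stood at 11.71 with the control, 11.12 with MO1/2 and 11.17 with MO3 in untreated caps, and at 12.14, 11.94 and 12.03 with activin/RA. Its untreated ERK3 arrays were the lowest of the 6, and all activin/RA arrays lay above all untreated ones. Its ERK3 change was -0.56 ± 0.10 SE in untreated caps (limma adjusted p = 0.0265) and -0.16 in activin/RA caps (0.623).

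The untreated calls of dnajc9.L and hspa1l.S rested on few arrays. For dnajc9.L the limma adjusted p was 0.0914 without untreated MO1/2, 0.0639 without untreated MO3, 0.0546 without activin/RA MO1/2 and 0.0545 without activin/RA MO3. For hspa1l.S it was 0.0609 without untreated MO1/2, 0.0622 without either activin/RA ERK3 array, and 0.0952 with no intensity trend. Without untreated MO1/2 the count of called genes fell from 6 to 2, which were the copies of cct4.

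No proteasome gene passed for the ERK3 morpholinos. In untreated caps limma called 0 of 57, compared with 6.7% of all probe sets. Of the 57, 6 were at an unadjusted p under 0.05 (7787 of all 32539 probe sets), with a smallest adjusted p of 0.0916. That smallest value was of psme4.L, the gene of the activator PA200, which stood at 9.25, 8.58 and 8.82 in untreated caps and 9.02, 9.04 and 9.11 with activin/RA (-0.54). In activin/RA caps limma called 0 of 57, compared with 0.138% of all probe sets. There 3 of the 57 were at an unadjusted p under 0.05 (3532 of all 32539 probe sets). The proteasome genes with the largest differences below 0 were the copies of psma3, which encodes an alpha ring subunit. For psma3.L the levels were 8.12, 6.62 and 7.75 in untreated caps and 8.36, 7.28 and 8.08 with activin/RA (-0.93, limma adjusted p = 0.290, and -0.68, limma adjusted p = 0.658). For psma3.S they were 5.63, 5.18 and 4.68, and 5.83, 4.67 and 5.18 (-0.70, limma adjusted p = 0.218, and -0.90, limma adjusted p = 0.370). The control array was the highest of its culture for both copies in both cultures, but the reagents stood far apart.

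In activin/RA caps, psma1.S stood at 7.60 with the control, 6.85 with MO1/2 and 7.0 with MO3 (-0.67, limma adjusted p = 0.286), and psma6.S at 7.80, 7.10 and 7.27 (-0.62, limma adjusted p = 0.318). Both control arrays stood above the ERK3 arrays of that culture, and neither gene passed. Their .L copies differed by 0.14 (psma1.L) and -0.10 (psma6.L). Of the heat shock genes, hsph1.L stood at 6.79, 7.63 and 7.35 there (0.70, limma adjusted p = 0.320), and dnajc27.S differed by 0.62 (limma adjusted p = 0.428). At least 2-fold differences with both reagents, counted without a test, were found in 3 genes in untreated caps, all higher, and in 1 gene in activin/RA caps, also higher. Of all probe sets 4.59% differed so in untreated caps (2.05% higher and 2.54% lower) and 1.06% in activin/RA caps (0.157% higher and 0.904% lower).

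Marker levels moved along with the untreated ERK3 comparison. The log2 of the summed linear signal of 17 maternal transcript symbols was 11.46 on the untreated control array, 12.28 with MO1/2 and 12.14 with MO3. In activin/RA caps it was 11.30, 11.60 and 11.45. In the untreated ERK3 comparison 8 of those 17 were called higher and 0 lower. Of all probe sets 3.14% were called higher and 3.56% lower there. For 22 epidermal symbols the log2 of the summed signal was 14.30, 13.46 and 13.68 in untreated caps and 14.10, 13.64 and 13.71 with activin/RA. Of these symbols 13 were called lower in untreated caps. Of 13 cell death and stress symbols 1 was called higher, which cannot be read as a shift. The part of these shifts in the chaperone results was not tested.

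**Figure D3:**
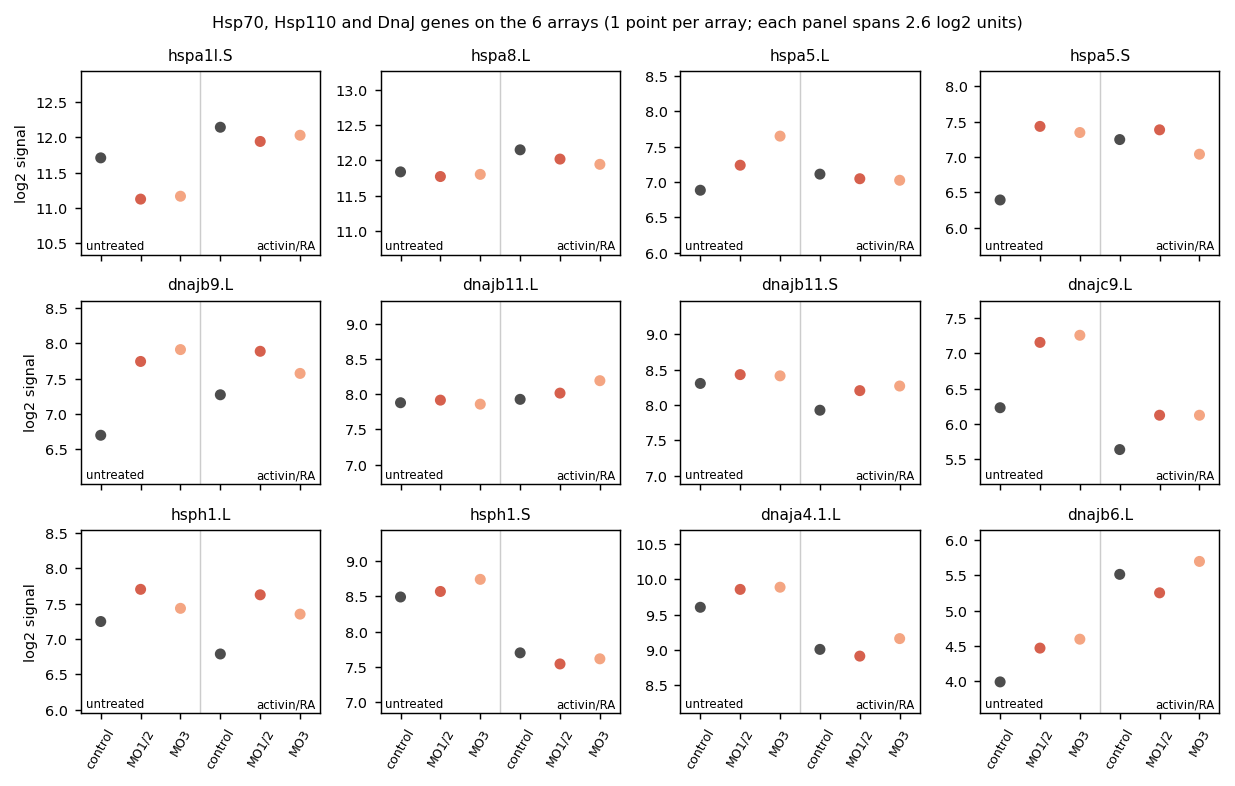
Log2 signal (vertical axis) of 12 Hsp70, Hsp110 and J-domain genes on the 6 arrays, 1 point per array, with untreated caps left and activin/RA caps right of the line; every panel spans 2.6 log2 units. On the untreated control array hspa5.S (6.39) and dnajb9.L (6.70) are at their lowest, hsph1.S is lower on all activin/RA arrays (7.54 to 7.70) than on the untreated ones (8.49 to 8.74), and hspa1l.S is higher (11.94 to 12.14 against 11.12 to 11.71).

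Whether the ERK3 effect differed between the cultures was tested by the interaction of culture and knockdown. Limma called 0 of 131 genes, with 6 at an unadjusted p under 0.05, and 0 of all 32539 probe sets, with 3061 at an unadjusted p under 0.05 (background 0%). The genes with the largest interactions were cct4.L (-1.36 ± 0.33 SE, limma adjusted p = 0.350), hspa5.S (-1.03, limma adjusted p = 0.388) and the ATPase gene psmc2.L (-0.84, limma adjusted p = 0.448). The levels of psmc2.L were 6.80, 7.33 and 7.10 in untreated caps and 7.08, 6.70 and 6.62 with activin/RA, so that its control array was the lowest in one culture and the highest in the other. In 14 of the 131 genes both reagents lay on opposite sides of the control in the 2 cultures. The smallest interaction adjusted p among them was that of psmc2.L. The share of all probe sets with this pattern is not given here, so 14 cannot be read as many or few. Differences in effect above 0 reached 0.65 in the dim small heat shock gene hspb1.S (limma adjusted p = 0.499), and stood at 0.59 in psme4.L (limma adjusted p = 0.492), 0.46 in cct8.S (limma adjusted p = 0.646), 0.41 in hspa1l.S (limma adjusted p = 0.458) and 0.38 in hsph1.L (limma adjusted p = 0.741). For the J-domain gene dnaja4.2.S the difference was -0.69 (limma adjusted p = 0.621). A difference between cultures in the response of these genes was therefore not shown for any of them.

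The difference between cultures was also read for each reagent. The activin/RA minus untreated difference of MO1/2 against control was below 0 for 45 of 57 proteasome genes, with a median of -0.20, where 17606 of all 32539 probe sets were below 0 with a median of -0.04. It was also below 0 for 9 of 11 chaperonin genes (median -0.13) and 38 of 58 heat shock genes (median -0.08). Over all 131 genes it was below 0 for 97 (median -0.16), so this shift was not particular to the proteasome. With MO3 it was below 0 for 30 of 57 proteasome genes, with a median of -0.01, and for 70 of all 131 genes. The reagents share their control arrays, and each value comes from 4 arrays. Set directly against each other over both cultures, MO3 and MO1/2 gave 0 calls of 131 in limma (11 at an unadjusted p under 0.05) and 0 of all probe sets (1973 at an unadjusted p under 0.05, background 0%).

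Several of the members with the largest differences between the reagents are proteasome genes, which make up 57 of the 131. Over these 57 the median difference was 0.0045, with 29 above and 28 below 0. With MO3, psma3.L was higher by 0.96 ± 0.16 SE (limma adjusted p = 0.321), the gene of the deubiquitinating subunit psmd14.L by 0.90 (limma adjusted p = 0.477) and the chymotrypsin-like subunit gene psmb5.L by 0.55 (limma adjusted p = 0.659). The chaperonin gene cct5.S was higher by 0.58 (limma adjusted p = 0.708), with its 5 probe sets from -0.17 to 0.66. The levels of psmb5.L were 8.22 with the control, 7.74 with MO1/2 and 8.16 with MO3 in untreated caps, and 8.08, 7.61 and 8.29 with activin/RA. On these arrays MO1/2 was the low one in both cultures, and MO3 lay near the control. A dimmer probe set of psmb5.L stood at 7.44, 7.22 and 6.98 in untreated caps and 7.45, 7.15 and 7.45 with activin/RA. It put MO3 lowest in untreated caps, and its difference between the reagents was 0.03. Probe sets disagreed for other members too. For psmc3.L the one used differed by 0.01 and another by 1.19 (limma adjusted p = 0.256). For dnaja1.L the one used differed by -0.04 and another by 0.79 (limma adjusted p = 0.464). In the other direction psme3.S, the gene of the nuclear activator PA28 gamma, stood at 8.72, 9.02 and 8.52 in untreated caps and 8.79, 9.01 and 8.08 with activin/RA, with MO3 the lowest in both (-0.72, limma adjusted p = 0.569). The copy psme3.L differed by -0.08. Below 0 too were dnajc27.L (-0.66, limma adjusted p = 0.659), psmc6.S (-0.44, limma adjusted p = 0.780) and psme3ip1.S, a name match (-0.43, limma adjusted p = 0.777). None of these differences passed the threshold over all probe sets.

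**Figure D4:**
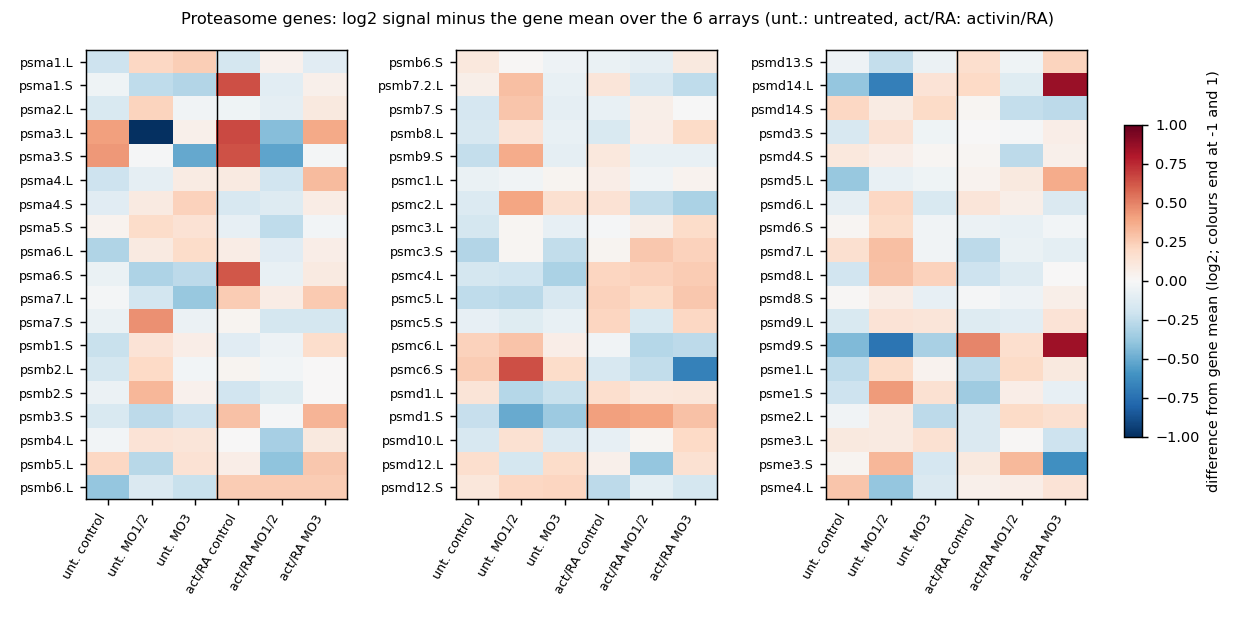
Log2 signal of the 57 proteasome genes minus each gene's mean over the 6 arrays, in colour (red above, blue below the mean; colours end at -1 and 1), with genes in rows by role and arrays in columns. Red or blue stripes that follow culture are few (psmd9.S, psmd1.S, psmc6.S), and psma3.L is lowest on the MO1/2 array of each culture (6.62 and 7.28).

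The comparison of activin/RA with untreated caps asks how these genes differ when caps are cultured with these factors. It called more of them, in both directions. Of 131 genes, 16 were higher and 9 lower, or 19.1%, compared with 20.5% of all probe sets (9.6% higher and 10.9% lower). The share of the list called was thus close to that of the array as a whole, and the median change was -0.04 for the list and -0.01 for all probe sets. By system, 9 of 57 proteasome genes, 3 of 11 chaperonin genes and 12 of 58 heat shock genes were called. Leaving out 1 array at a time gave counts from 8 (without activin/RA MO3) to 41 (without either control array). The shares of all probe sets called in those fits are not given here. These counts thus show how calls depend on single arrays, not how these genes compare with the array. The 7 genes called in each of those 6 fits were dnaja4.1.L, dnajb6.L, hspa1l.S, hspb1.S, hsph1.S, psmd1.S and psmd9.S, and every other call was lost in at least 1 of them. In the same comparison all 25 mesoderm and endoderm marker symbols were called higher, of 17 maternal symbols 1 was called higher and 8 lower, and of 22 epidermal symbols 6 were called higher and 2 lower. The part of these shifts in the results for the 131 genes was not tested.

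Among genes above the overall median (log2 5.10) on at least 1 array, the J-domain gene dnajb6.L rose the most. The dim gene hspb1.S, described below, rose by more. In mammals the product of dnajb6.L keeps aggregation-prone proteins soluble. The gene stood at 3.99, 4.47 and 4.60 in untreated caps and 5.52, 5.25 and 5.7 with activin/RA. It was thus dim in untreated caps and passed that filter only through its activin/RA arrays, so its rank is tied to its rise. The groups did not overlap, and the change was 1.14 ± 0.19 SE (limma adjusted p = 0.00761). Its copy dnajb6.S stayed between 8.08 and 8.44 on all arrays. Also higher were dnajb13.S, whose product in mammals belongs to the radial spokes of cilia and flagella (0.93, limma adjusted p = 0.00542), and hspa1l.S (0.70 ± 0.10 SE, 1.63-fold, limma adjusted p = 0.00424).

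The largest decrease was that of the Hsp110 gene hsph1.S, which stood at 8.49, 8.57 and 8.74 in untreated caps and 7.70, 7.54 and 7.61 with activin/RA. The groups lay well apart, and the change was -0.98 ± 0.12 SE, or 1.97-fold lower (limma adjusted p = 0.00247). The Hsp70 partner gene dnaja4.1.L stood at 9.60, 9.86 and 9.89 in untreated caps and 9.01, 8.91 and 9.16 with activin/RA, again with no overlap (-0.76 ± 0.11 SE, limma adjusted p = 0.00424). The gene dnajc9.L was lower by 0.92 ± 0.16 SE on the log2 scale (limma adjusted p = 0.00867), and its call was lost without any 1 of the 4 ERK3 arrays (limma adjusted p of 0.0646 to 0.0793). The activin/RA and untreated ERK3 comparisons share the 3 untreated arrays, so their values for dnajc9.L and hspa1l.S are not independent. The constitutive cytosolic Hsp70 gene hspa8.L stood at 11.83, 11.77 and 11.80 in untreated caps and 12.15, 12.02 and 11.94 with activin/RA and missed the threshold (0.23, limma adjusted p = 0.0591). No mitochondrial chaperonin gene was called by limma (0 of 3, with 1 at an unadjusted p under 0.05). Of all probe sets 20.5% were called and 11334 of 32539 were at an unadjusted p under 0.05, so 0 of 3 says little. The gene with the widest range among them, hspe1.L, stood at 8.94, 9.43 and 9.21 in untreated caps and 8.82, 9.10 and 8.95 with activin/RA, with overlapping groups (-0.23, limma adjusted p = 0.149).

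Some heat shock genes that passed were dim on every array. The small heat shock gene hspb1.S stood at 2.07, 1.97 and 1.92 in untreated caps and 2.80, 3.47 and 3.19 with activin/RA, all below the median of all values. Its change of 1.17 (limma adjusted p = 0.00410) was the largest increase of the 131 genes with activin/RA. The small heat shock gene hspb7.L (-0.72, limma adjusted p = 0.0202) and the Hsp70 gene hspa2.L (0.76, limma adjusted p = 0.0150) were likewise below that median on all arrays. These signals lie where array values compress differences.

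Of the 9 proteasome genes called, 8 carry the psmc or psmd names of the regulatory cap (4 of 9 and 4 of 18 genes). The other belongs to the beta ring (1 of 12). Of all probe sets 20.5% were called. The .S copy of psmd9, an assembly chaperone of the cap's ATPase ring, stood at 5.60, 5.32 and 5.72 in untreated caps and 6.54, 6.21 and 6.90 with activin/RA. The groups did not overlap, and the change was 1.0 ± 0.14 SE (limma adjusted p = 0.00467). The scaffold subunit gene psmd1.S stood at 8.69, 8.42 and 8.56, and at 9.33, 9.31 and 9.21 (0.73 ± 0.11 SE, limma adjusted p = 0.00491). The deubiquitinase gene psmd14.L rose by 0.63 with groups that overlapped (3.88 to 4.70 and 4.44 to 5.43, limma adjusted p = 0.0291). Its untreated levels were all below the overall median, so it passed the filter on level only through activin/RA arrays. The lid gene psmd12.S fell by 0.36 (limma adjusted p = 0.0354). The copy psmd12.L changed by -0.12 and was not called (limma adjusted p = 0.540). That made 3 higher and 1 lower of 18 psmd genes, with psmd9 counted among them.

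Of 9 ATPase genes 2 rose and 2 fell. Those that rose were psmc4.L (0.46, limma adjusted p = 0.0221) and psmc5.L (0.46, limma adjusted p = 0.0249). Those that fell were the copies of psmc6. The levels of psmc6.S were 8.51, 8.90 and 8.44 in untreated caps and 8.10, 8.01 and 7.58 with activin/RA, with no overlap (-0.72, limma adjusted p = 0.0117). For psmc6.L the change was -0.39 (limma adjusted p = 0.0479), and it missed the threshold after quantile normalization (0.0581). Both are read by probe sets whose probes may also read other transcripts, so the copies may not be told apart.

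In the core particle, the caspase-like beta subunit gene psmb6.L stood at 9.29, 9.54 and 9.45 in untreated caps and at 9.93 on each activin/RA array (0.50, limma adjusted p = 0.0132). It was the 1 gene called of 12 beta ring genes. Limma called 0 of 12 alpha ring genes, with 4 at an unadjusted p under 0.05 and a smallest adjusted p of 0.0532 (psma7.L, 0.39). It called 0 of 6 activator genes, with 0 at an unadjusted p under 0.05. Of all probe sets 20.5% were called, and 11334 of 32539 were at an unadjusted p under 0.05. With so few genes per group, these counts cannot be read as low shares. The immunoproteasome genes psmb8.L and psmb9.S and the activator genes psme1.L and psme2.L lay near or below the median of all values, from 3.01 to 5.16 over the arrays.

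Of the chaperonin genes, both copies of cct7, the eta subunit gene, rose. The levels of cct7.S were 6.80, 6.57 and 6.74 in untreated caps and 7.49, 7.34 and 7.31 with activin/RA (0.68 ± 0.13 SE, limma adjusted p = 0.0116). Those of cct7.L were 8.30, 8.27 and 8.40, and 8.82, 8.66 and 8.85 (0.46, limma adjusted p = 0.0232). Neither pair of groups overlapped. The epsilon subunit gene cct5.S was also called (0.60, limma adjusted p = 0.0267), but its 5 probe sets ranged from -0.34 to 0.60. Related probe sets of the same target passed too (0.54 and 0.48, limma adjusted p = 0.0439 and 0.0387). Those of another target were dimmer, lay below 0 (-0.34 and -0.12) and were not called. For cct4 the changes were -0.46 (.L, limma adjusted p = 0.277) and -0.02 (.S, 0.943), and neither passed. The calls of the 3 cct genes were each lost without any 1 of the 4 ERK3 arrays, with limma adjusted p up to 0.168 for cct7.L and 0.0882 for cct7.S.

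Of the genes matched by name alone, psmc3ip.L, a partner of meiotic recombinases and no proteasome subunit, stood at 5.61, 5.87 and 5.26 in untreated caps and 4.66, 4.45 and 4.85 with activin/RA (-0.93, limma adjusted p = 0.0237). It passed the filter on level only through its untreated arrays, so its naming as a decrease is tied to its fall. It was the 1 of these 5 called, where 20.5% of all probe sets were called. The call was lost without the MO1/2 array of either culture (limma adjusted p = 0.155 and 0.150).

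The .L and .S copies of a gene, each read by 1 probe set, often changed by different amounts with activin/RA. Probe sets of a single copy could also differ, from -0.34 to 0.60 for cct5.S and from -0.78 to -0.21 for hspa14.L. Those of psmc1.L lay closer, from -0.09 to 0.05. The part of such probe set differences in the copy results was not tested. Both copies were measured for 33 of the genes, and their changes had the same sign in 16 (48.5%), compared with 62.4% of the 2009 such pairs on the array. A test of the difference between copies was chosen after seeing the data. Limma called 13 of 33 pairs different (39.4%), compared with 30.8% of all pairs. The dnajc27 copies, whose products join a Rab-like GTPase to a J domain, moved in opposite directions. The .L copy stood at 6.91, 7.78 and 7.23 in untreated caps and 6.33, 7.02 and 6.26 with activin/RA (-0.77, limma adjusted p = 0.00995). The copy dnajc27.S stood at 5.29, 6.08 and 5.67, and at 5.97, 6.72 and 6.47 (0.70, limma adjusted p = 0.0144). Each copy moved the same way in all 3 morpholino pairs although its groups overlapped, and the difference between the copies was -1.48 ± 0.16 SE (limma adjusted p = 0.00155).

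In 7 of the other pairs called different (dnajb6, hspb1, hsph1, psmb6, psmd1, psmd9 and psmd14), 1 copy was called for activin/RA and the other was not. For dnajb6 the .L minus .S difference was 1.17 ± 0.18 SE (limma adjusted p = 0.00496) and for psmd9 it was -1.07 ± 0.17 SE (limma adjusted p = 0.00575), where psmd9.L stayed between 5.05 and 5.34. It was 0.95 for psmd14, 0.78 for hsph1, 0.55 for psmb6 and -0.48 for psmd1. For hspb1, dim in both copies, it was -1.37 (limma adjusted p = 0.00482). The copies that were not called themselves changed by -0.04 (dnajb6.S), -0.07 (psmd9.L), -0.32 (psmd14.S), -0.21 (hsph1.L), -0.04 (psmb6.S), 0.25 (psmd1.L) and -0.21 (hspb1.L). In the pairs of psma1, psma6, psma7, dnajc8 and dnajb11 neither copy was called for activin/RA, and the copies differed by 0.40 to 0.61 in size. For the ERK3 effect in untreated caps limma called 0 of 33 pairs (6 at an unadjusted p under 0.05), compared with 0.299% of all pairs. The copies of cct4 changed by 1.82 and 1.54 there. For the ERK3 effect in activin/RA caps, its difference between cultures and MO3 against MO1/2, limma called 0 pairs of 33, with 5, 1 and 5 at an unadjusted p under 0.05, and 0% of all pairs.

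**Figure D5:**
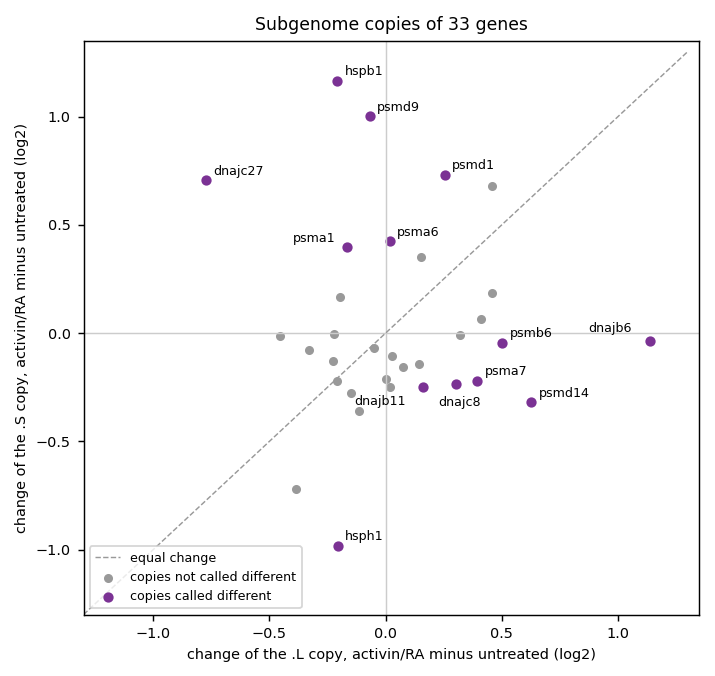
Change in log2 signal with activin/RA of the .S copy (vertical axis) against that of the .L copy (horizontal axis) for the 33 genes with both copies; the dashed line marks equal change and purple points are pairs whose copies were called different (13). The dnajc27 pair lies in the quadrant where the .L copy is lower (-0.77) and the .S copy higher (0.70).

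A list of 78 symbols of the same systems that the naming rule leaves out was read beside them. With activin/RA, 11 were called higher and 7 lower (23.1%, near the 20.5% of all probe sets). The gene of the ubiquitin-activating enzyme uba1.L stood at 5.72, 5.37 and 5.35 in untreated caps and 7.11, 7.22 and 7.07 with activin/RA (1.66 ± 0.15 SE, limma adjusted p = 0.000716). The groups lay far apart. The gene nfe2l1.S, whose product activates proteasome genes in mammals, rose by 1.1 ± 0.16 SE (limma adjusted p = 0.00429), while the mitochondrial co-chaperone gene grpel2.L fell by 0.97 (limma adjusted p = 0.00497).

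In untreated caps 2 of the 78 were higher and 1 was lower with the ERK3 morpholinos (3.85%, compared with 6.7% of all probe sets). The gene of the unfolded protein response factor xbp1.L stood at 11.01, 9.43 and 9.79 in untreated caps and 11.00, 10.77 and 10.82 with activin/RA. The untreated ERK3 arrays were the low ones, and the change was -1.40 ± 0.16 SE (limma adjusted p = 0.0155). The gene of the Hsp90 activator ahsa1.L stood at 4.59, 6.12 and 5.82, and at 4.68, 4.85 and 4.98 (1.38 ± 0.23 SE, limma adjusted p = 0.0234). The third was tcp1.S, described with the chaperonin. In activin/RA caps limma called 0 of 78 (6 at an unadjusted p under 0.05), compared with 0.138% of all probe sets. For the difference between cultures it called 0 (9 at an unadjusted p under 0.05). For MO3 against MO1/2 it called 0 (7 at an unadjusted p under 0.05). In both, 0% of all probe sets were called.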

How the data were processed

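Per the labels, RNA of each group (250 ng) was read on 1 array, and the authors normalized the arrays with the robust multi-array average. The deposited intensity values are linear (2.13 to 18347), and log2 was taken here. The table has 32635 rows, 96 of them controls that were not tested. The platform annotation gave 1 symbol to 15495 probe sets, several to 279 and none to 16765. All 131 genes matched a RefSeq entry. The brightest of 166 candidate probe sets was kept for each symbol, and 23 symbols had more than 1. Probe sets with several symbols were left out, 5 of which held a symbol of the rule.

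Tests used the functions lmFit and eBayes of limma 3.58.1 (R 4.3.3) with a trend on intensity, adjusted by Benjamini-Hochberg over 32539 probe sets. Activin/RA and MO3 against MO1/2 were fitted with culture and morpholino as terms. The ERK3 effects and their difference were fitted with culture, knockdown and their interaction. Each fit left 2 residual degrees of freedom, and the number of arrays limits the precision. Both fits were run on simulated data with independent noise. That check required only a median recovered change near the change put in, so it does not test the p-values.

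The genes and lists were chosen with earlier results of these data known. Named genes are, per comparison and direction, up to 8 called genes with the largest change, the same sign in every single difference and 1 or more arrays with a signal over the overall median, filled to 4 with genes said not to pass. Also named are every chaperonin gene, the gene with the largest range in each role and the other copy of a named gene. Neighbours outside the 131 genes are named only from the 3 with the largest change in a comparison. Genes named beyond this rule (dim, near the threshold, read as a group, or with several probe sets) were chosen after their values were seen. Alternatives varied the trend, robustness, a constant of 16 before log2, normalization, centring, a filter on level, the probe set per symbol, the block and each array. A planned description of promoter motifs was not run.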

Additional observations from a re-analysis of the deposited data

How the results depend on the processing

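Counts under the alternatives were pooled over the 5 comparisons and the copy comparison. They stayed within 1.5 times in 57 cases, rose in 5 and fell in 16. The main fits of the difference between cultures and of MO3 against MO1/2 called 0 genes, a count that cannot fall. The 57 cases are therefore no measure of how stable the calls are. The sign of a gene's change could depend on the probe set, as for cct5.S with activin/RA (-0.34 to 0.60). The values below 0 came from its dimmer probe sets, which were not called. For ERK3 in untreated caps the sign also differed between probe sets of dnaja1.L (-0.91 to 0.28) and of psmc3.L (-0.56 to 0.15). For activin/RA, 25 genes were called, 8 to 41 with 1 array left out (8.79% of all probe sets and 16 genes without the morpholino block, 42 genes with the ERK3 arrays alone, where 32.8% of all probe sets were called). For ERK3 in untreated caps, 6 were called, 2 to 6 with 1 array left out, 1 (cct4.S) for the mean effect over both cultures, and 3 by 2-fold change without a test. For ERK3 in activin/RA caps, 1 was called, 0 with no intensity trend, 0 with brighter probe sets only, and 0 to 1 with 1 array left out. For MO3 against MO1/2, 0 were called, and 0 to 6 with 1 array left out, the 6 without either control array. For the difference between cultures 0 were called in every fit. Of the copies 13 pairs were called different, 6 without the morpholino block, and 8 to 16 with 1 array left out. Leaving out the control array of a culture left its ERK3 effect and the difference between cultures without an estimate. The labels number no replicates, so the pairing used for activin/RA is that of the morpholinos. Counts with 1 array left out and for the mean effect over both cultures are given without the share of all probe sets called. The same holds for no intensity trend and brighter probe sets only. The copies without the block lack the share of all pairs. None of these counts can be set against the array. Causes of these shifts were not tested. Signals near the low end of the scale compress changes, and 15 genes lay below the median of all values on all arrays.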
